A study of Mus musculus with 8 samples.

Results

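The basement membrane is a thin sheet of matrix on which epithelia rest, and 9 genes that make it were followed in single cells of the mouse mammary gland. The genes were Col4a1, Col4a2, Col18a1, Sparc, Lamb1, Lamc1, Lama5, Nid1 and Hspg2, taken by symbol. All 9 were present among the 14883 gene rows of the count table. The cells came from micro-dissected ducts and terminal end buds, the growing duct tips, of mice 5 weeks old. The strain is given as mixed, and no genotype or treatment is named. All libraries share these features. The labels separate 8 libraries, 4 on plate 2 and 4 on plate 1, each of 96 wells. They do not say which library held ducts or end buds, or which animals supplied it, so each p-value reflects variation from library to library, possibly technical alone. Wells were read as cells when they held at least 1500 transcripts, counted as tagged molecules without spike-ins, and at least 500 genes. Of 768 wells, 114 passed.

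A network of type IV collagen and a network of laminin trimers form the basement membrane, and nidogen and perlecan join them. In mammary ducts the myoepithelial cells of the basal layer lie directly on this sheet and the luminal cells lie inside them. Hormone-sensing and secretory luminal cells are the main luminal kinds. A cell was called basal when Acta2, Tagln and Myl9, genes of the contractile apparatus, summed above the keratins Krt8, Krt18 and Krt19, and luminal when the reverse held. Luminal cells with Prlr, the prolactin receptor, above Trf, transferrin, were called hormone-sensing and the other luminal cells secretory. None of the 9 genes entered this rule. It gave 66 basal, 14 hormone-sensing and 28 secretory cells, and 6 cells were tied. All 9 tested genes of the basal marker list were higher in basal sums and all 8 tested genes of the luminal list lower, although 3 of the basal and 3 of the luminal markers had also set the classes.

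Class and library went together. Sums of at least 5 cells were formed in 4 libraries for basal cells, numbers 2 and 4 of each plate, and in 4 for luminal cells, numbers 1 and 3. No library gave both sums, and in the comparison of basal with luminal cells the 2 cannot be told apart. Basal sums held 70050 to 586868 transcripts and luminal sums 100981 to 192438. Some cells called basal carried more transcripts of another cell type's markers than of all epithelial marker lists. These were 8 of the 66 basal cells, all on plate 1, of which 5 were led by endothelial markers, 2 by fibroblast markers and 1 by red blood cell markers. All 6 tied cells and 1 secretory cell were of this kind too. In the other 58 basal cells 9 of the 14 endothelial genes were found, led by Cd34 with 34 transcripts in 20 cells and Plvap with 9 in 6 cells, and Cdh5, Tek, Emcn, Cldn5 and Eng had 0. The list's sum was 0.537 per 10000 in these cells, against 46.8 in the 8 set apart. The columns carry well numbers and not barcode sequences, so shared barcodes could not be counted.

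The starts of some of these genes are shown because the collagen IV pair shares one and Lama5 differed in direction from the rest. Sequences are from RefSeq, build GRCm38.p6, which is mm10, and 8 of the 9 genes matched the RefSeq promoter table by symbol; Lamc1 did not. Col4a1 on the minus strand and Col4a2 on the plus strand of chromosome 8 are annotated head to head, and their starts overlap over 22 bases at chr8:11312805-11312826. These are given on the plus strand, with the GC box in capitals. For Lama5, Lamb1 and Nid1 the longest stretch outside exons of the GENCODE annotation within the 250 bases upstream of the RefSeq start is given on the gene's strand. Lama5 is at chr2:180225860-180226109 (minus strand), Lamb1 at chr12:31265043-31265233 (plus strand) and Nid1 at chr13:13437352-13437550 (plus strand). Capitals mark GC boxes (GGGCGG) and CCAAT boxes (CCAAT), on either strand.
Col4a1 and Col4a2 start: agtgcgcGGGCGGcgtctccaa
Lama5: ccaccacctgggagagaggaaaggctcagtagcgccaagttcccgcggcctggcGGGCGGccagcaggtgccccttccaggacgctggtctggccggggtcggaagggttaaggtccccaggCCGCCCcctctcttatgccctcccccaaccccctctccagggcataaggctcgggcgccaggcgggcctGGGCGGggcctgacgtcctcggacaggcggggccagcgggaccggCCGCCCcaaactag
Lamb1: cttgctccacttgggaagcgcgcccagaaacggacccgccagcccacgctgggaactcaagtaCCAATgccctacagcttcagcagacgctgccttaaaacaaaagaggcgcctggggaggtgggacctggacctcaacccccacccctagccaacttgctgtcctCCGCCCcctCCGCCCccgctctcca
Nid1: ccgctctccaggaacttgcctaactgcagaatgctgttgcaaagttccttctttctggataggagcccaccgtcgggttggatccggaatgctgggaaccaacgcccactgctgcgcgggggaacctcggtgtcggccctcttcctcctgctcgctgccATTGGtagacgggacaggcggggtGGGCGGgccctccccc
The 250 bases upstream of Lama5 held 4 GC boxes and no CCAAT box. Hspg2, higher in basal cells, had 5 GC boxes and no CCAAT box. Lamb1 had 2 GC boxes and Nid1 had 1, with 1 CCAAT box each, and the upstream Col18a1 start had 3 and 1. The TATA box (TATAAA) was searched as well and was absent from all 5. Among 32851 RefSeq windows of this length, 32.7% held a GC box, 33.8% a CCAAT box and 12.4% a TATA box, and overlapping matches of different motifs were each counted. A match here is a match of letters only.

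Basal cells carried the collagens, Sparc, the laminin beta and gamma chains and nidogen, and luminal cells carried almost none of them. Lama5, a laminin alpha chain, ran the other way, through the hormone-sensing luminal cells. Each gene's levels are given as transcripts per 10000 of the summed cells, which for tagged 3-prime end counts does not depend on gene length. In the order of their basal means, Sparc was at 31.0 ± 10.1, Col4a1 at 20.5 ± 9.90, Col4a2 at 12.3 ± 4.15, Lamc1 at 4.83 ± 2.53, Lamb1 at 4.02 ± 1.04, Col18a1 at 3.23 ± 0.87, Nid1 at 1.27 ± 0.54, Hspg2 at 1.12 ± 0.88 and Lama5 at 0.473 ± 0.232 (SD, n = 4 libraries). Every neighbour in this order overlapped the next in its range over libraries, except that the lowest Col4a2 library, at 8.14, lay above the highest Lamc1 library, at 6.56, and the lowest Col18a1 library, at 2.28, lay above the highest Nid1 library, at 1.73.

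**Figure D1:**
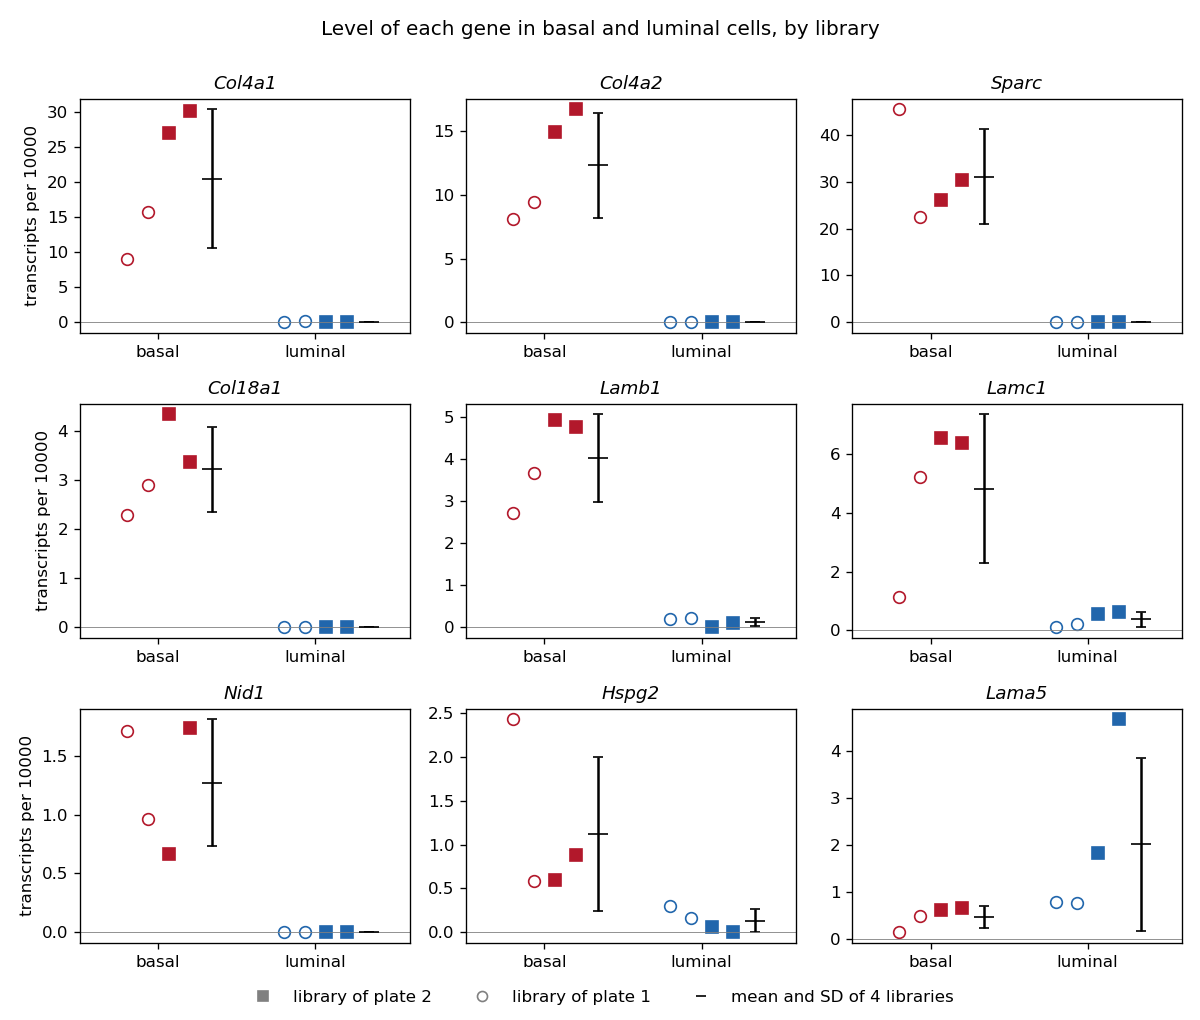
Transcripts per 10000 of each gene, summed over the basal (left) or luminal (right) cells of a library. Squares are libraries of plate 2, open circles libraries of plate 1, and the bar gives the mean and SD of 4 libraries. With all basal cells counted, the basal libraries lie above all luminal libraries for 8 genes and below them for Lama5. The vertical scale differs between panels.

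Type IV collagen is the network-forming collagen of basement membranes, built as a trimer of mostly alpha 1 and alpha 2 chains. Col4a1, the alpha 1 chain, had 27.1 and 30.3 transcripts per 10000 in the basal cells of plate 2 libraries 2 and 4, and 8.99 and 15.7 in those of plate 1 libraries 2 and 4. In luminal cells it was at 0.109 in plate 1 library 3 and at 0 in the other 3 libraries. The groups did not overlap, and both plate 2 basal libraries were above both of plate 1. Summed over the libraries, 2882 transcripts stood against 2, a ratio of 822 with a counting interval of 227 to 6791 at 95%. Intervals of this kind cover counting error only. Col4a2, the alpha 2 chain, followed with 14.9 and 16.7 per 10000 in basal cells of plate 2 and 8.14 and 9.46 in those of plate 1, against at most 0.0547 in luminal libraries. Its ratio was 462 (128 to 3816).

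Col18a1 encodes collagen XVIII, a heparan sulfate bearing collagen of basement membranes and the source of endostatin. Its basal levels were 4.35 and 3.38 per 10000 on plate 2 and 2.28 and 2.90 on plate 1. No luminal library held a transcript, so 420 basal transcripts stood against 0. Set against a floor of 3 transcripts over the luminal group, Col18a1 was at least 79.9-fold higher in basal cells. Sparc encodes a secreted glycoprotein that binds collagen. Its basal levels were 26.0 and 30.3 per 10000 on plate 2 and 45.4 and 22.5 on plate 1, where library 2 stood highest with all its basal cells counted. Without its cells led by other types, Sparc was at 20.6 in that library. Luminal cells held 2 Sparc transcripts in all, a ratio of 896 (248 to 7403).

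Laminins are trimers of an alpha, a beta and a gamma chain. Lamb1, the beta 1 chain, was at 4.94 and 4.78 per 10000 in basal cells of plate 2 and at 2.71 and 3.67 on plate 1, against 0 to 0.219 in luminal libraries. It was higher in basal cells, with a log2 difference of 4.96 ± 0.49 (SE, 4 libraries per class, edgeR adjusted p = 2.17e-05). Lamc1, the gamma 1 chain, was at 6.56 and 6.40 on plate 2 and at 1.14 and 5.21 on plate 1, against 0.0990 to 0.624 in luminal libraries. Plate 1 library 2 lay far below the other basal libraries for this gene, and still above every luminal library with all its basal cells counted. Without its cells led by other types, Lamc1 was at 0.502 there, within the luminal range. The Lamc1 difference was 3.62 ± 0.54 (log2, SE, edgeR adjusted p = 0.00039). Lamb1 and Lamc1 passed the filter on low counts through the basal sums, so these p-values are a description. The linkers were lower in level. Nid1, nidogen, which bridges laminin and collagen IV, was at 0.665 and 1.73 on plate 2 and at 1.71 and 0.966 on plate 1, with no luminal transcript, and was at least 23.2-fold higher in basal cells. In plate 1 library 2 all 12 of its transcripts came from 1 cell, which was led by fibroblast markers. Hspg2, perlecan, the large heparan sulfate proteoglycan of the sheet, had 89 transcripts in basal and 7 in luminal sums, a ratio of 7.25 (3.38 to 18.6). It did not pass the filter on low counts. Without the filter its difference was 3.05 ± 0.66 (log2, SE, edgeR adjusted p = 0.00028).

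Across all genes tested, 505 of 3420 differed between basal and luminal sums (14.8%), 276 of them higher (8.07%) and 229 lower (6.7%) in basal cells. Of the 9 genes, 8 passed the filter, 7 were called higher and 1, Lama5, lower. Each of the 8 passed the filter through the sums of the class where it was higher. Col18a1 and Nid1, without a luminal transcript, had to differ. These counts and the p-values of these genes therefore describe the genes and support nothing. With all basal cells counted, groups did not overlap for 9 of the 9, with 8 higher, against 10.4% of all tested genes higher and 8.74% lower without overlap. With the cells led by other types set aside, plate 1 library 2 held Nid1 and Hspg2 at 0 and Lamc1 at 0.502 per 10000. For these genes it then no longer lay above every luminal library. Over the 9 genes the median log2 ratio of summed counts, with Col18a1 and Nid1 at their lower bounds, was 5.20. The median fitted change, a different measure, was 8.07 (log2) over the 8 of them tested and -0.00012 over all tested genes. 

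The cells led by markers of other types held these transcripts as well. In 6 endothelial-led cells, basal and tied together, Sparc was at 48.8 per 10000, Col4a1 at 21.1, Col4a2 at 20.6 and Hspg2 at 5.47, while Col18a1 and Lama5 had 0 transcripts in 23752. In 3 fibroblast-led cells Sparc was at 110.8, and Nid1 and Hspg2 were both at 6.69. The summed endothelial list was at 0.511 and 0.483 per 10000 in the basal cells of plate 2 libraries 2 and 4, and at 22.6 and 5.21 in those of plate 1. The fibroblast list was at 0.511 and 0.540 on plate 2 and at 14.1 and 2.03 on plate 1. With the cells led by other types set aside, plate 1 library 2 kept 3 cells, in which Sparc was at 20.6, Col4a1 at 6.53, and Nid1 and Hspg2 at 0. Over the 58 basal cells left, Col4a1 was at 26.2, Sparc at 26.6, Col4a2 at 14.5 and Nid1 at 1.02 per 10000. Hspg2 was at 0.639 in these cells, against 4.89 in the 8 set aside, and the sum of the 9 genes in plate 1 library 2 was 40.7 with those cells set aside and 72.95 with them. With them set aside and at least 3 cells a sum, 4 basal libraries remained, and Lama5 kept its call (edgeR adjusted p = 0.032). With at least 5 cells a sum plate 1 library 2 dropped out, and Lama5 lost it (edgeR adjusted p = 0.057).

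Shares of cells with a transcript ran the same way. Sparc was found in 66 of 66 basal cells and 2 of 42 luminal cells, and Col4a1 in 64 basal cells (97.0%) and 2 luminal cells (4.76%). Col18a1 was found in 53 basal cells (80.3%, exact binomial interval 68.7 to 89.1) and in 0 of 42 luminal cells. Median depth was 13450.5 transcripts in basal, 17924 in hormone-sensing and 7102.5 in secretory cells. After thinning each cell to 1500 transcripts, Sparc was still found in 63 basal cells (95.5%) and in no luminal cell, and Col18a1 in 20 basal cells (30.3%). Kept luminal cells carried Sparc and Col4a1 at 0.0315 per 10000 each, against 11.2 and 2.00 in the wells under 500 transcripts of libraries 1 and 3. The same wells held Lama5 at 1.75 per 10000, all 7 transcripts of it in plate 2 library 3, where their level was 5.70, against 4.68 in the kept luminal cells of that library. In libraries 2 and 4 the wells under 500 transcripts held Sparc at 36.1, Nid1 and Hspg2 at 1.39 and Lama5 at 1.16. These were above the levels summed over the basal cells, 28.0, 1.09, 0.802 and 0.579. Col4a2 was slightly above as well, at 15.1 against 14.5, and Lamb1 near equal, at 4.63 against 4.62. Col4a1 was lower in these wells, at 13.7 against 25.7, as were Col18a1, at 1.85 against 3.76, and Lamc1, at 5.10 against 5.995. Summed over all the genes followed here, these wells were at 80.4, against 85.1 in the basal cells. What these wells hold was not tested.

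The 2 basal cells found in luminal libraries were left out of the sums and give the only values of both classes within a library. In plate 2 library 1 the basal cell held 6 transcripts of the 9 genes in 2404, or 24.96 per 10000, against 2.46 per 10000 in the library's 10 luminal cells. In plate 1 library 3 the basal cell, led by red blood cell markers, was at 24.4, against 1.59 in 12 luminal cells. Both lay above the luminal cells of their library and below the 61.5 to 95.1 per 10000 of the basal sums elsewhere. No test is possible on 1 cell.

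Lama5, the alpha 5 chain found in laminins of many epithelia, was the only one of the 9 with its higher level in luminal cells. Its basal levels were 0.613 and 0.654 per 10000 on plate 2 and 0.143 and 0.483 on plate 1. Luminal levels were 1.83 and 4.68 on plate 2 and 0.792 and 0.766 on plate 1. The groups did not overlap, and plate 2 library 3 stood highest. Basal cells were lower, with a log2 difference of -1.93 ± 0.57 (SE, 4 libraries per class, edgeR adjusted p = 0.036).

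Among luminal cells, Lama5 transcripts lay mostly in the hormone-sensing class, with 128 of 141. All secretory cells together held it at 0.438 per 10000, beside 0.579 in all basal cells, so the higher luminal level lay in the hormone-sensing cells. Hormone-sensing sums held 1.12, 1.92 and 10.6 per 10000 in library 3 of plate 1 and in libraries 1 and 3 of plate 2, in that order, and the secretory sums of the same libraries held 0.265, 0.808 and 0.614. The difference was 3.01 ± 0.79 (log2, SE, n = 3 library pairs, edgeR with library as block, adjusted p = 0.0017), higher in 3 of 3 libraries. In this comparison 241 of 1806 genes were called (13.3%), 105 of them higher (5.81%) and 136 lower (7.53%) in hormone-sensing cells. Groups without overlap and higher were 22.1% of all tested genes. Lama5 was the only one of the 9 that passed the filter here, and it did so through the hormone-sensing sums, where it was high. Its call and the 3 of 3 libraries therefore describe it and are no support. Hormone-sensing cells held 11 of 14 cells with a Lama5 transcript, against 12 of 28 secretory cells, and 5 of 14 against 2 of 28 after thinning.

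A single hormone-sensing cell of plate 2 library 3 carried 79 of the class's 128 Lama5 transcripts (61.7%), at 17.3 per 10000. The other 13 cells together were at 1.68 per 10000, and all 28 secretory cells at 0.438, a ratio of 3.83 (counting interval 2.05 to 7.70). Without that cell the difference between hormone-sensing and secretory sums was 1.24 (log2, edgeR adjusted p = 0.46) and that between basal and luminal sums was -0.97 (edgeR adjusted p = 0.18). Both Lama5 calls therefore ended when this cell was left out, a choice made after its value was seen, while both directions stayed. Leaving out plate 2 library 3 gave 1.70 (edgeR adjusted p = 0.62) and -1.11 (edgeR adjusted p = 0.16).

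**Figure D2:**
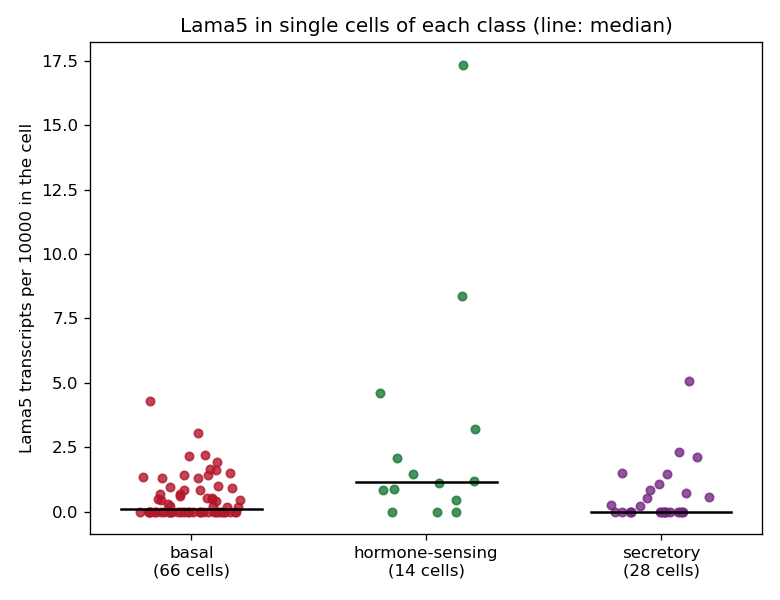
Lama5 transcripts per 10000 in each of 66 basal, 14 hormone-sensing and 28 secretory cells, with the class median as a line. Most cells of every class lie under 5, and the hormone-sensing cell at 17.3 stands alone.

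The other 8 genes were near absent from both luminal classes. Hormone-sensing cells held 0 transcripts of Col4a1, Col4a2, Col18a1, Nid1 and Lamb1 in 337608, which allows up to 0.0889 per 10000, and secretory cells held 2, 2, 0, 0 and 8 of them in 296912. Lamc1 was the exception, with 16 transcripts in hormone-sensing cells, 0.474 per 10000, and 10 in secretory cells, 0.337 per 10000. Over the 3 libraries with both classes its ratio was 1.08 (counting interval 0.450 to 2.78).

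Levels of other laminin chains differed in value between the classes, given here without a test. In basal cells Lama1, the alpha 1 chain, was at 5.91 per 10000 and Lama3, the alpha 3 chain of the hemidesmosome-binding laminin, at 3.45, beside Lamb1 at 4.62 and Lamc1 at 5.995. Lamb3, a partner of Lama3, was at 1.17. In hormone-sensing cells Lama1 and Lama3 had 0 transcripts, Lama5 was at 3.79 and Lamb2 at 0.592. Secretory cells held Lamb2 at 0.775 and each of Lama3, Lama5 and Lamb3 at 0.438. Lama2 had 4 transcripts in 1 basal cell led by another cell type and none in the other basal or luminal cells, and Lamc3 had 3, all in basal cells. Lama1 falls under the rule for named genes, and Lama2, Lama3, Lamb2, Lamb3 and Lamc3 were named after their values were seen.

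Other components of the sheet were higher in basal cells as well. Of 31 listed genes, 10 were tested and 7 were higher in basal cells, with none lower, where 8.07% of all tested genes were higher and 6.7% lower. Vwa1, a matrix protein that binds perlecan, had 445 transcripts in basal and 3 in luminal sums, a ratio of 84.6 (28.8 to 411.9). Lama1 was higher by 5.53 ± 0.60 (log2, SE, edgeR adjusted p = 3.64e-05), Fbln2, fibulin 2, by 5.28 ± 0.66 and Tinagl1, a secreted matrix protein, by 4.02 ± 0.54. Agrn, agrin, differed by 1.45 ± 0.48 without passing. The list's median was 3.09. Vwa1, Lama1, Fbln2 and Tinagl1 held 3, 6, 7 and 21 transcripts in luminal sums and passed the filter through the basal sums. The count of 7 is therefore a description and no support.

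Receptors for the sheet were mixed. Of 12 listed, 9 were tested, 4 were higher in basal cells and 1 lower, with a median log2 difference of 1.03, beside the same 8.07% and 6.7% of all genes. Dag1, dystroglycan, which binds laminin, was higher by 2.06 ± 0.31 (log2, SE, edgeR adjusted p = 0.00042). The laminin-binding integrin chain Itga6 was higher by 2.66 ± 0.49 and its partner Itgb1 by 1.03 ± 0.23. Itga6 held 34 transcripts in luminal sums and could not have passed the filter without the basal sums. The count of 4 is therefore a description and no support. Sdc4, the proteoglycan syndecan 4, was lower by -1.39 ± 0.33. Itga3 differed by 1.64 ± 0.56 and Itgb4 by -0.27 ± 0.75, and neither passed.

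Genes that make collagen inside the cell mostly did not pass. Of 25 listed, 10 were tested and 1 was called, Serpinh1, the collagen chaperone Hsp47, higher in basal cells by 2.07 ± 0.49 (log2, SE, edgeR adjusted p = 0.011). This share is near that of all tested genes, 8.07% higher. The general chaperones Hsp90b1 and P4hb differed by -0.04 ± 0.28 and -0.38 ± 0.27. The median over the list was 0.40. Among 20 matrix proteases and inhibitors, 8 were tested and 3 were higher in basal cells, beside 8.07% of all tested genes. Mmp2, a gelatinase that cuts collagen IV, had 198 transcripts in basal sums and 0 in luminal sums and was at least 37.7-fold higher. Adamts1 had 307 against 2, a ratio of 87.6 (24.03 to 726.3), and the inhibitor Timp3 was higher by 4.82 ± 0.68. These 3 genes passed the filter through the basal sums, so their count is a description. In hormone-sensing against secretory sums, Mmp14, the membrane-bound activator of Mmp2, was higher by 2.20 ± 0.69 and the protease Ctsl lower by -2.77 ± 0.64 (log2, SE, edgeR adjusted p = 0.014 and 0.00027). Mmp14 held 12 transcripts in secretory sums and Ctsl 18 in hormone-sensing sums. Neither could have passed the filter without the class where it was higher, so these p-values are a description.

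Between plates, no gene passed in basal cells in the main fit. Of 4668 genes tested on 2 libraries of plate 2 against 2 of plate 1, 0 (0%) were called by edgeR, with 389 at an unadjusted p under 0.05, and DESeq2 called 22. Col4a1 differed by 1.23 ± 0.35 (log2, SE, edgeR adjusted p = 0.49) and Col4a2 by 0.86 ± 0.30 (edgeR adjusted p = 0.56), the smallest p-values among the 9. With all cells Sparc differed by -0.25 ± 0.39. With the cells led by other types set aside and both plate 1 libraries kept, at 3 cells a sum, Sparc differed by 0.56, Col4a2 by 1.16 and Col4a1 by 1.42, and none passed (edgeR adjusted p = 0.78, 0.76 and 0.76). The direction of Sparc turned with those cells. Over the alternatives Col4a1 differed by 0.93 to 1.81 and Col4a2 by 0.80 to 1.16. Without the filter on low counts, 1 of the 9 genes was called higher by edgeR. Some of the 9 were also called in fits that left 1 library on a plate, which cannot show the spread between libraries of that plate. The class by plate term had 0 of 5031 genes (0%) called by edgeR, with 221 at an unadjusted p under 0.05.

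Basal cells also differed among themselves. Levels per cell are given over the 58 basal cells not led by another type. Col4a1 had a median of 25.3 transcripts per 10000, with quartiles at 15.03 and 39.0, and a highest cell at 132.2. Sparc had a median of 27.5, with quartiles at 17.5 and 36.2, and was found in every cell. After thinning to 1500 transcripts the variance over the mean, a measure that grows with the mean, was 2.79 for Col4a1, 2.78 for Col4a2, 2.22 for Sparc and 1.58 for Nid1. The other 5 genes lay between 0.909 and 1.13, near the value of 1 that counting alone gives. For 483 genes with a thinned mean of at least 0.5 the median was 1.26, with quartiles at 1.08 and 1.53. One cell of plate 2 library 2, with 1664 transcripts in all, held 22 of Col4a1 and 18 of Col4a2. Without it, a choice made after its value was seen, Col4a1 was at 2.19, Sparc at 2.18 and Col4a2 at 1.42, and the upper quartile of 472 genes was at 1.51. Col4a2 thus lay above the upper quartile through that cell. Nid1 was found in 32 of 58 cells, with a median of 0.374 and a highest cell at 12.02.

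The 2 collagen IV chains kept a fixed order in most cells. Col4a1 had more transcripts than Col4a2 in 53 of 58 cells, fewer in 3 and as many in 2. Summed, the ratio of Col4a1 to Col4a2 was 1.80 (counting interval 1.70 to 1.92). It was 1.82 and 1.81 in plate 2 libraries 2 and 4, and 0.963 (0.540 to 1.71) and 1.91 (1.44 to 2.55) in plate 1 libraries 2 and 4. The 6 endothelial-led cells stood at 1.02 (0.674 to 1.55). Of these, 5 came from plate 1 library 2, whose own remaining basal cells were at 0.963, so cell type and library cannot be told apart here. The highest cell, in plate 2 library 2, held 132.2 and 108.2 per 10000 of the pair.

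**Figure D3:**
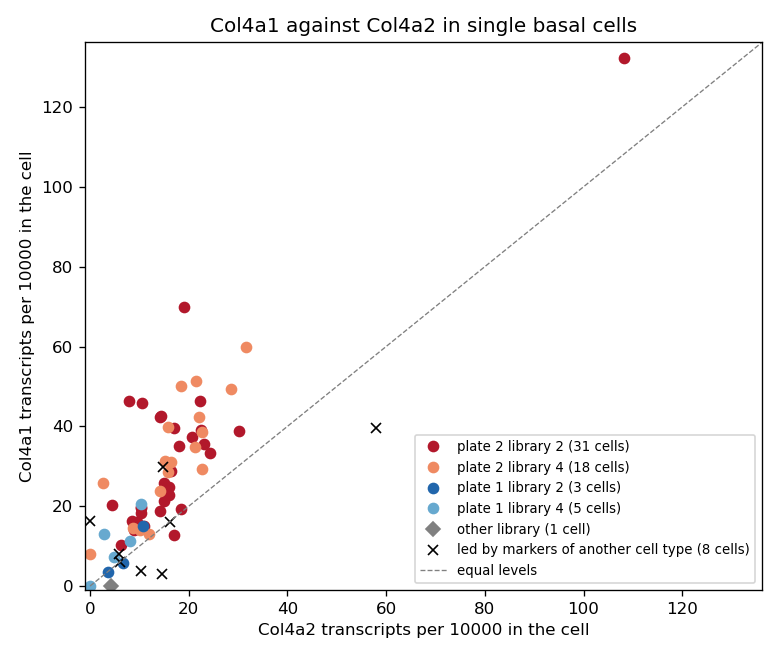
Col4a1 against Col4a2 in single basal cells, in transcripts per 10000 of the cell. Filled points are the 58 cells by library, crosses the 8 cells led by markers of another cell type, and the dashed line marks equal levels. Most points lie above the line, and 1 cell of plate 2 library 2 lies far above the rest in both.

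Levels of some genes went together across cells. Spearman's correlation between Col4a1 and Col4a2 was 0.747 over the 58 cells, 0.515 in plate 2 library 2 (31 cells) and 0.829 in plate 2 library 4 (18 cells). Lamc1 followed Col4a1 at 0.569 and Col4a2 at 0.632. Sparc followed Col4a1 at only 0.129, Acta2, Tagln and Myl9 together at 0.643 and the basal keratins Krt5 and Krt14 at 0.616. The cells share libraries, and depth per cell was near unrelated to the sum of the 9 genes, at -0.089. Thinning to 1500 transcripts lowered these values, to 0.416 for Col4a1 with Col4a2 and 0.303 for Col4a1 with Lamc1. Col18a1 with Sparc was at -0.409 before and at -0.025 after thinning. The sum of the 9 genes followed the contractile genes at 0.720, and at 0.561 and 0.818 in plate 2 libraries 2 and 4.

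**Figure D4:**
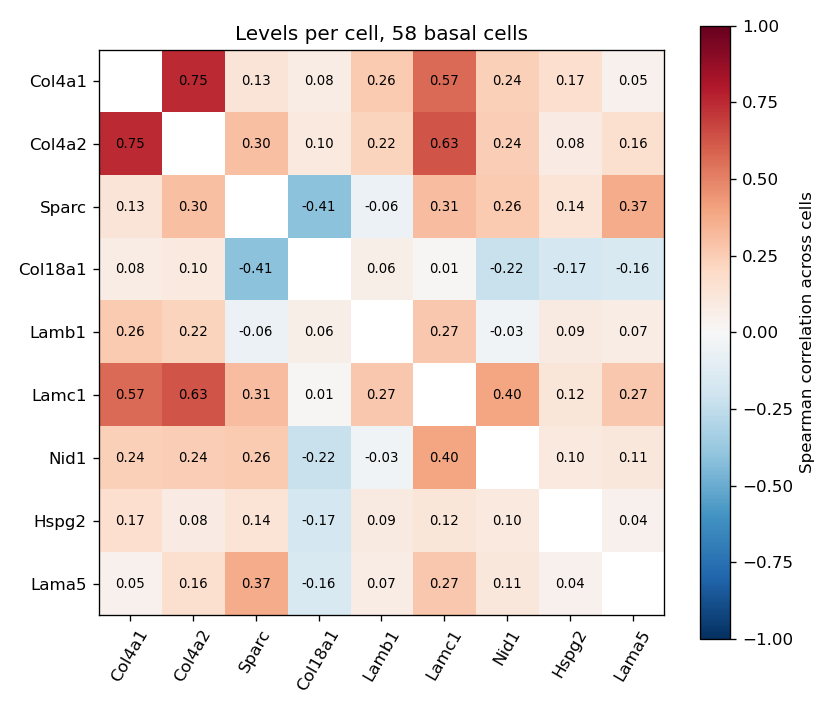
Spearman correlation between the levels per 10000 transcripts of each pair of genes across 58 basal cells. Col4a1, Col4a2 and Lamc1 form the block of high values, from 0.57 to 0.75, and Col18a1 against Sparc is the lowest value at -0.41.

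Outside the 9 genes, those among the 5 most like their sum across all 66 basal cells included Ctsl at a Spearman correlation of 0.665, App at 0.632, Fmod at 0.587 and Ism1 at 0.587, of 3410 genes with a mean of at least 1 transcript per cell. The median over these genes was -0.024. In the 58 cells not led by another type the 5 highest included Tpm1 at 0.739, Tagln at 0.713, App at 0.708 and Il17b at 0.704. App was in both sets.

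Well number went with the levels on plate 2. The split at well 24 was chosen after the values were seen, and the labels give the well numbers no meaning. In plate 2 library 2 the median Col4a1 level was 38.1 per 10000 in 18 cells of wells 25 to 96 and 19.3 in 13 cells of wells 1 to 24. In plate 2 library 4 it was 38.5 in 13 cells and 23.8 in 5 cells. Lamc1 had medians of 9.51 and 4.19 in library 2 and 6.88 and 2.49 in library 4, in the same order of wells, and Sparc 28.5 and 20.4, then 36.1 and 16.5. Col18a1 ran the other way, with 3.42 and 4.71 in library 2 and 2.17 and 2.96 in library 4. The contractile genes moved with the split, at 183 and 59.3 in library 2 and 193 and 32.2 in library 4. Median depth moved with it too, at 10121.5 and 22009 transcripts in library 2 and 14530 and 33737 in library 4. The part of either in these levels was not tested.

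**Figure D5:**
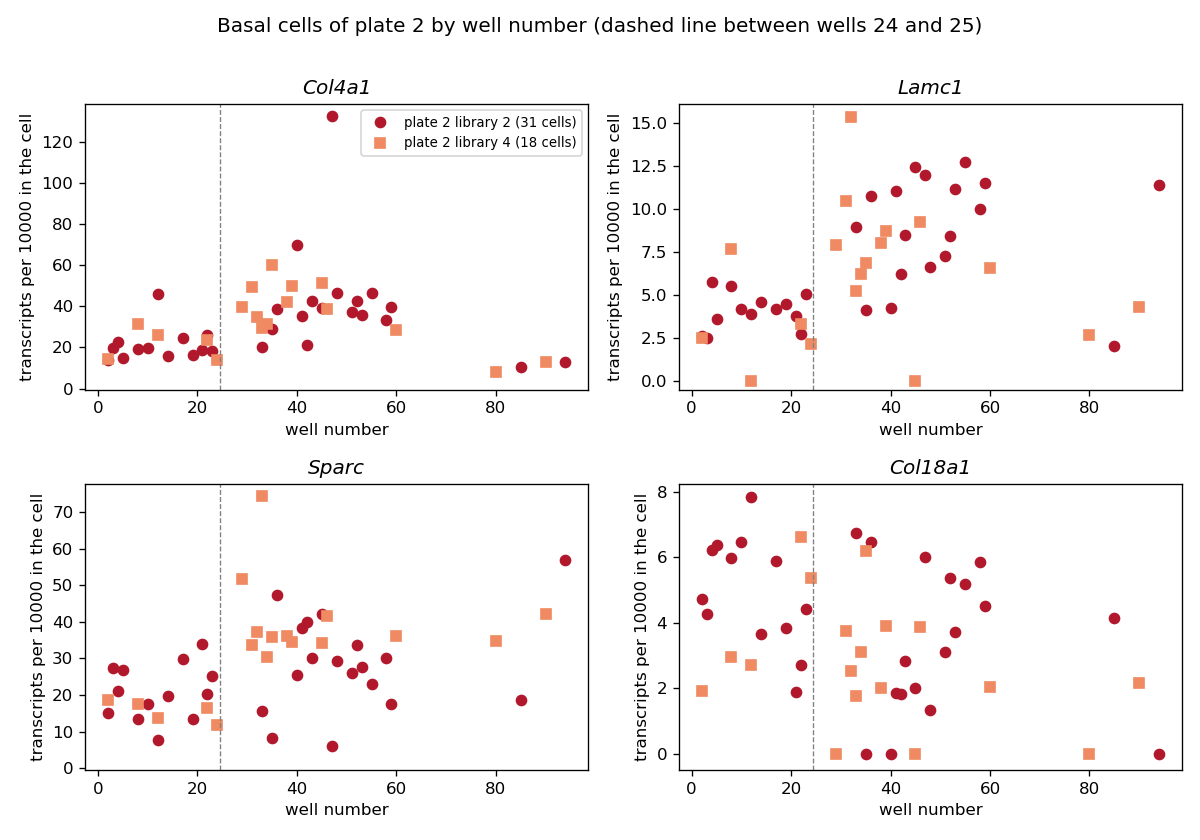
Transcripts per 10000 of Col4a1, Lamc1, Sparc and Col18a1 in the basal cells of plate 2, by well number. Circles are the 31 cells of library 2 and squares the 18 cells of library 4, and the dashed line lies between wells 24 and 25. Col4a1, Lamc1 and Sparc have higher medians right of the line in both libraries, and Col18a1 lower ones.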

How the data were processed

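Single cells were profiled by SORT-seq, an automated CEL-seq2 that tags each well and molecule, with 75 bp paired reads, per the labels' protocols. The submitters' processing notes name BWA 0.6.2-r126 and mm10 without a role. The deposited table holds estimated counts of transcripts per gene and well; per its values the authors corrected them for molecules sharing 1 of 256 tags. Nothing further is given in the sources used here.

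The counts were made whole by rounding, without the 81 spike-in rows. Basal and luminal sums (at least 5 cells) held 70050 to 586868 transcripts. Sums of the luminal classes (at least 3 cells) held 12378 to 145951. Sums were tested with edgeR 4.0.16 in R 4.3.3 (quasi-likelihood test, TMM scaling, the filterByExpr filter, threshold of 0.05 on the p adjusted by Benjamini and Hochberg). Standard errors are approximate, from dividing the log2 change by the root of F. DESeq2 1.42.0 was an alternative. On simulated data with 200 genes changed 4-fold, recovery was counted over the changed genes that passed the filter. The basal against luminal fit recovered 92.5% of 160 such genes (3020 genes tested). The hormone-sensing against secretory fit recovered 75.6% of 160 (1568 tested) and the plate fit 41.1% of 163 (4261 tested). The luminal fit took library as block, since both classes came from the same library. Cells of 1 library are not replicates, so values across cells are descriptions without a test. Doublets were not called. The named genes were the 9 genes, up to 4 passing and 2 further genes per pathway list, and the 5 genes most correlated with their sum. The genes and lists were chosen with earlier results of these data known. No column lacked a sample. Values of some genes that these rules name are not reported here.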

Additional observations from a re-analysis of the deposited data

Results flagged for a closer look

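Of 18 groups of 4 libraries, 2 held a library far from the others, where chance gives about 1 in 20 for values that vary freely. That rate does not apply to groups at or near 0, such as luminal Col18a1 and Nid1, at 0 in all 4 libraries. Hspg2 in basal cells was highest in plate 1 library 2, at 2.43 transcripts per 10000, the library with the most endothelial and fibroblast marker transcripts, and at 0.579 to 0.881 in the other 3. Col4a1 in luminal cells was highest in plate 1 library 3, at 0.109 per 10000, which is 2 transcripts, and at 0 elsewhere. This flag rests on those 2 transcripts. The 6 tied cells, used in no comparison, held 240 transcripts of the 9 genes, or 94.95 per 10000, and all 6 were led by markers of another cell type. Wells under 500 transcripts held 415, or 49.9 per 10000. The level there was 74.8 to 86.0 per 10000 in libraries 2 and 4 of both plates, which held the basal cells, and 11.4 to 33.6 in libraries 1 and 3.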

How the results depend on the processing

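For basal against luminal cells, 7 of the 9 genes (Col4a1, Col4a2, Col18a1, Sparc, Lamb1, Lamc1 and Nid1) kept their direction and call under every alternative in which they were tested, and Lama5 kept its direction in all 21 and lost its call in 9. Nid1 was tested in 20 alternatives. It dropped out with cells of other types set aside at 3 cells a sum, where plate 1 library 2 held 0 of its transcripts. The count of genes called, 505, became 1511 without a filter, 163 on plate 1 alone, 939 on plate 2 alone, 837 with basal cells called by keratins, 835 with cells of other types set aside, 40 after thinning, and 436 to 848 leaving out 1 library. No paired analysis was possible for basal against luminal cells because library numbers go with class. For hormone-sensing against secretory cells the count, 241, became 11 to 140 leaving out 1 library, and Lama5 lost its call with no replicate block (adjusted p = 0.052), with no filter (0.052) and leaving out any 1 of the 3 libraries (0.057 to 0.62). Between plates, the 0 calls became 11 (all lower) with library number as replicate block, 22 with DESeq2, 174 without a filter, 84 with cells of other types set aside at 5 cells a sum, which leaves plate 1 with library 4 alone, assumed to vary like the rest, but 0 at 3 cells a sum with both libraries, and 34 to 866 leaving out 1 library (866 without plate 1 library 4). Deviations of same-numbered basal libraries from their plate's mean correlated at r = 0.0033. With 2 basal libraries a plate these deviations mirror each other, so both pairs give the same value. Leaving out 1 library moved the plate difference (log2) from -0.55 to 0.39 for Sparc, from -0.90 to 0.50 for Nid1 and from -1.61 to 0.38 for Hspg2, each positive without plate 1 library 2. With cells set aside, at 5 and 3 cells a sum, Sparc turned to 0.59 and 0.56, Nid1 to 0.22 and 0.80, and Hspg2 to 1.29 and 1.80. Nid1 turned to 0.076 without a filter, and to 0.30 and 0.50 without plate 1 library 2 and plate 2 library 2. The class by plate count of 0 became 23 without a filter and 0 to 2 leaving out 1 library. The correlation of Col4a1 and Col4a2 over 66 basal cells, 0.735, became 0.416 after thinning. The causes were not tested. The alternatives with at least 3 cells a sum and cells set aside, and without 1 hormone-sensing cell, were chosen after seeing the data.

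Depth limits the low genes: Lama5, Nid1 and Hspg2 held 65, 122 and 90 transcripts in all basal cells. Class and library cannot be told apart, and ducts and end buds are not separated by the labels. Luminal sums of 3 cells can rest on 1 cell.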
